A study of Mus musculus with 6 samples.

Results

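*Lcn10*, the gene knocked out in the mice of this study per the labels, lies on mouse chromosome 2 (GRCm38, 25682726 to 25686081, plus strand), and the genes described here are its neighbours within 3 Mb on either side. They were chosen by position. Each is a row of the expression table whose gene starts in the GENCODE annotation between 22.68 and 28.68 Mb of chromosome 2. Distances run between the lowest coordinates of the genes. The annotation has 229 gene starts there, of which 149 matched a row. Leaving out *Rxra*, *Notch1*, *Rpl7a*, *Slc2a6*, *Mrps2* and *Mrpl41* left 143 of 24972 rows, *Lcn10* itself included. Of these, 130 are annotated as protein-coding, 6 as miRNA and the other 7 as antisense, long intergenic, small nucleolar or processed transcripts.

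RNA was sequenced from untreated bone marrow-derived macrophages, which are grown from mouse marrow in medium with supernatant of L929 cells, which secrete the growth factor M-CSF. The cells came from Lcn10-KO mice (3 libraries) and from wild-type (WT) mice (3 libraries). No source used here tells how the knockout allele was made, how much DNA it removes, or the strain, age and sex of the mice. Separate mice per replicate are not stated either, so the p-values speak of spread among these libraries, which may be technical.

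Values are normalized counts, read counts that the authors scaled to nearly equal totals of 20476668 to 20636260 per library. One read was worth 0.824 to 1.14 normalized counts, which puts the depth at about 18000000 to 24900000 reads. Macrophage markers were abundant in every library, with a sum over 8 genes (*Adgre1*, *Csf1r*, *Cd68*, *Itgam*, *Mertk*, *Fcgr1*, *Lyz2* and *Cd14*) of 293764 to 308309 in Lcn10-KO and 280139 to 290881 in WT. *Lyz2* made up most of each sum, at 181584 to 193715 in Lcn10-KO and 165280 to 180316 in WT. Of these 8 markers, 2 (*Adgre1* and *Mertk*) were higher and 2 (*Csf1r* and *Cd14*) lower in Lcn10-KO past the threshold given next. A gene was tested if it had at least 10 normalized counts in at least 3 libraries. The test was limma across all 12091 such genes, on log2(value + 1), where the change of low genes comes out too small. A gene is called higher or lower where its Benjamini-Hochberg adjusted p over all genes is under 0.05. Fold changes are Lcn10-KO over WT.

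Lipocalins are small barrel-shaped proteins that carry fatty acids, retinoids, odorants or siderophores. Mice have a cluster of lipocalin genes around *Lcn10* on chromosome 2, several of which are known for expression in the epididymis, and unrelated genes of ordinary cell function lie beyond it on both sides.

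Nearly all genes of the lipocalin cluster were listed at 0 or close to it. *Lcn10* was listed at 0 in all 3 Lcn10-KO and all 3 WT libraries, so it cannot check the genotype labels. Of the 13 lipocalin family genes among the neighbours, 11 were listed at 0 throughout, namely *Lcn3*, *Lcn4*, *Lcn5*, *Lcn6*, *Lcn8*, *Lcn9*, *Lcn10*, *Lcn11*, *Lcn12*, the odorant-binding protein gene *Obp2a* and *Ptgds*, the prostaglandin D2 synthase of brain and testis. *Obp2b* had 1.69 normalized counts in 1 Lcn10-KO library and 0 in the other 5 libraries. *C8g*, the gamma chain of complement component 8, had 7.45, 8.46 and 8.33 normalized counts in Lcn10-KO and 7.92, 3.43 and 4.94 in WT, and its groups overlapped. None of the 13 could be tested.

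Over the whole region 43 of the 143 genes were listed at 0 in all 6 libraries and another 24 stayed under the filter, with a highest single value of 12.9 normalized counts. The remaining 76 were tested (53.1%), against 48.4% of all rows. Their mean levels ran from 9.52 to 6351 normalized counts, not divided by length, with a median of 579, against 611 for all tested genes. Around *Lcn10* itself few genes had reads. Between the starts of *Fcna* and *Camsap1*, 302.2 kb apart, 12 of 14 genes were at 0 in every library and 1, *Bmyc*, was tested.

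**Figure D1:**
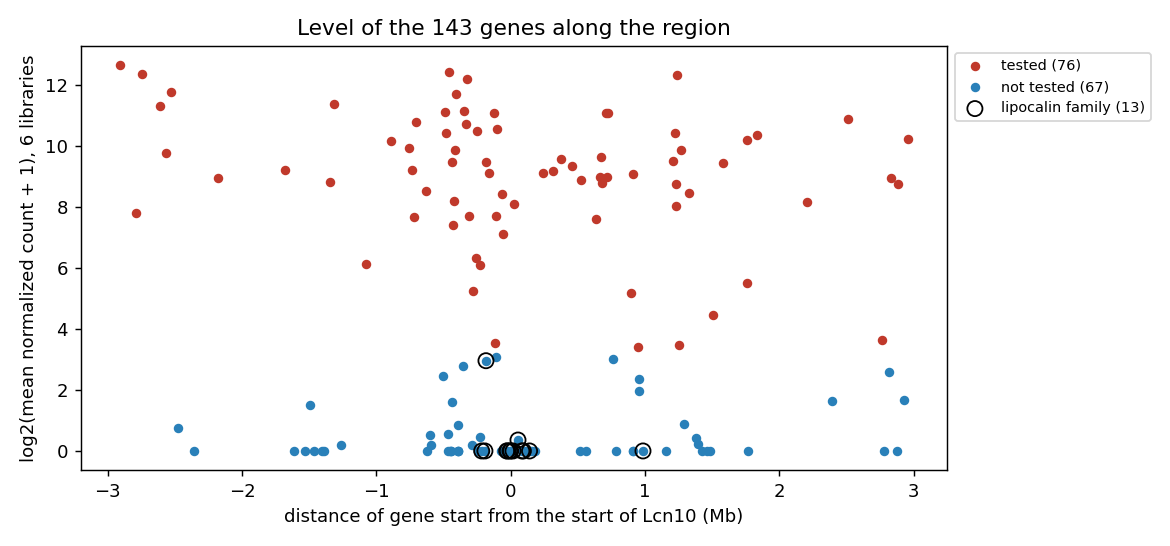
Level of the 143 genes against distance from *Lcn10*. The x axis is the distance of each gene's start from that of *Lcn10* in Mb, the y axis log2(mean normalized count + 1) over all 6 libraries, not divided by gene length, and each point is a gene, red where tested (76) and blue where not (67). Circles mark the 13 lipocalin family genes, which crowd at or near 0 around the middle, while tested genes lie on both sides.

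The 5 genes with the most normalized counts in the region, not divided by length, included genes of cell shape and secretion. Per kilobase of annotated exon, *Tubb4b*, a beta-tubulin, had a mean of 2638 normalized counts over the 6 libraries, *Surf4*, a cargo receptor of the endoplasmic reticulum, 1554, and *Abi1*, a subunit of the actin-regulating WAVE complex, 1289. *Uap1l1*, a relative of the enzyme that makes UDP-N-acetylglucosamine, had 1152 and *Apbb1ip*, the Rap1 effector RIAM of integrin activation, 857. These values do not rank the region per kilobase, since another gene, outside the 5, reached 1615. None of the 5 was called different between genotypes (limma adjusted p of 0.0877 to 0.459).

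The question put to the region was which neighbours of *Lcn10* differ between unstimulated macrophages of the 2 genotypes. Of the 76 tested neighbours, 6 were called. *Ralgds*, *Pnpla7* and *Egfl7* were higher in Lcn10-KO and *Bmyc*, *Fcna* and *Olfm1* lower. That is 7.89% of those tested, against 9.84% of all tested genes, a smaller share in this setting without a fold limit. By direction, 3 of 76 were higher, against 4.7% of all tested genes, and 3 lower, against 5.14%. The median log2 fold change was 0.01 over the tested neighbours and −0.0011 over all tested genes, and the median absolute log2 fold change was 0.10 in both. The values of Lcn10-KO and WT did not overlap in 25 of the 76 (32.9%), with Lcn10-KO above in 14 and below in 11, against 32.4% of all tested genes. An unadjusted p under 0.05 was reached by 19 neighbours, against 26.3% of all tested genes. Of the 6 called, *Bmyc*, *Fcna*, *Egfl7* and *Ralgds* differed by at least 1.5-fold. These 4 of the 76 are a larger share than the 1.12% of all tested genes called with such a difference. That contrast rests on 4 genes and was not tested. Whether called or not, 4 of the 76 neighbours and 423 of all 12091 tested genes differed by at least 1.5-fold. Without Lcn10-KO replicate 2 or 3 the number called was 3 or 2 (3.95% or 2.63%), against 1.7% or 1.43% of all tested genes. Limma without its mean-variance trend called 0 of the 76 and 0.116% of all tested genes. Of the 76, 19 then had an unadjusted p under 0.05 (smallest adjusted p 0.0821).

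**Figure D2:**
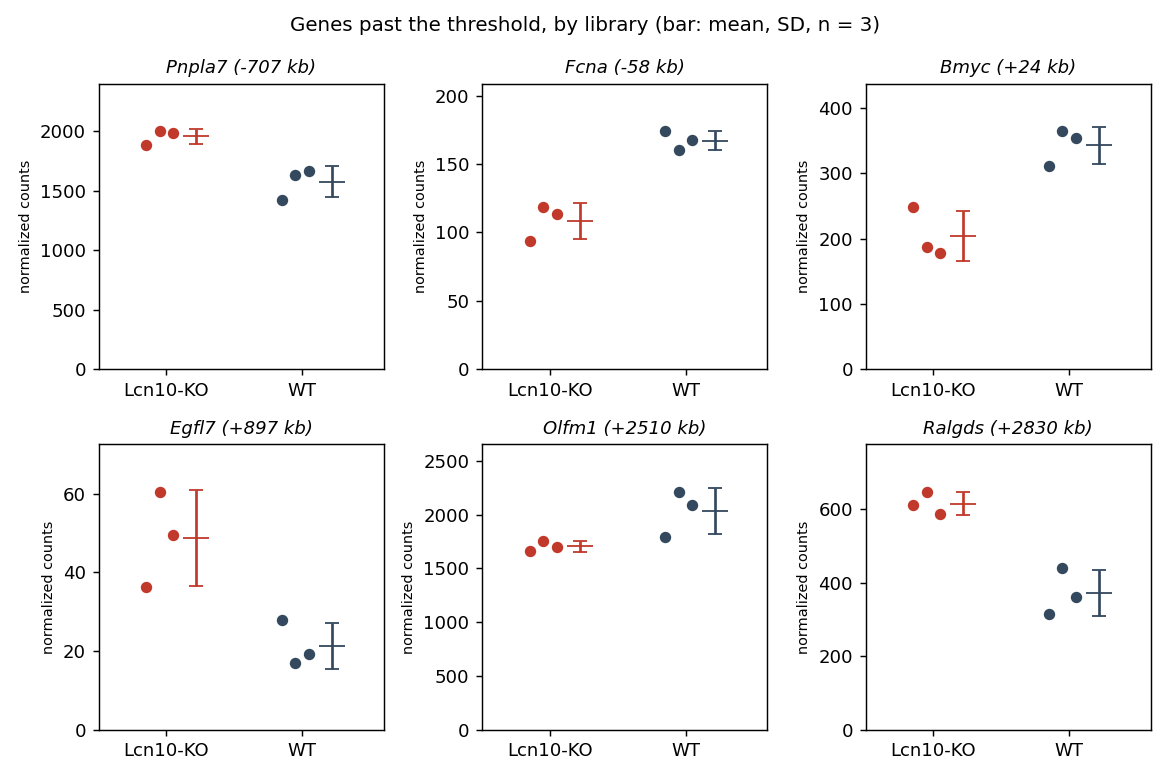
Normalized counts of the 6 called genes in each library, ordered by position, with the distance from *Lcn10* in kb. Points are libraries, Lcn10-KO in red and WT in dark blue, and bars are the mean ± SD of 3 libraries on a y axis that starts at 0. In each panel the 3 Lcn10-KO values lie on one side of the 3 WT values.

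The tested genes closest to *Lcn10* on its 2 sides, *Fcna* and *Bmyc*, were both lower in Lcn10-KO, and these were the 2 largest decreases among the tested neighbours. *Bmyc*, a Myc family member that lacks the DNA-binding region of the other Myc proteins, starts 24.0 kb from *Lcn10* (25706739 to 25707721, plus strand). It had 249, 187 and 178 normalized counts in Lcn10-KO, against 311, 365 and 354 in WT. The highest Lcn10-KO library lay below the lowest WT library. The mean was 204 ± 38.6 in Lcn10-KO and 343 ± 28.7 in WT (SD, n = 3 each), a log2 fold change of −0.76 ± 0.12 (SE, limma adjusted p = 0.00573).

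*Fcna*, ficolin A, is a secreted lectin of the macrophages of liver and spleen that binds sugars on microbes and starts the lectin pathway of complement. It starts 58.1 kb from *Lcn10* on the other side (25624666 to 25628030, minus strand). It had 93.7, 119 and 114 normalized counts in Lcn10-KO, against 174, 160 and 168 in WT. Again no Lcn10-KO library reached the lowest WT value. The log2 fold change was −0.63 ± 0.12 (SE, limma adjusted p = 0.0112), from means of 109 ± 13.1 in Lcn10-KO and 167 ± 7.09 in WT (SD, n = 3 each). Without Lcn10-KO replicate 3 its adjusted p was 0.0536. Its relative *Fcnb*, a ficolin of myeloid cells in marrow that lies 2394 kb from *Lcn10*, was untested at 1.04 to 2.54 normalized counts in Lcn10-KO and 1.13 to 3.43 in WT.

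Both genes lie wholly inside annotated antisense genes, *Bmyc* inside *A230005M16Rik* and *Fcna* inside *Fcnaos*, which were not analysed here. The strand setting of the counting is not given in the sources used here, so reads of a gene and its antisense partner cannot be told apart. *Fcnaos* also covers *Tmem141*, the next tested gene out, which codes for a small membrane protein. *Tmem141* had 369, 352 and 340 normalized counts in Lcn10-KO and 309, 340 and 353 in WT, with overlapping groups (log2 fold change 0.08 ± 0.08 (SE), limma adjusted p = 0.546).

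Promoter sequences of *Lcn10* and of 3 called neighbours are shown so that *Lcn10*, listed at 0, can be set beside genes with reads in these macrophages. They run from 250 bases before to 50 after the RefSeq start on the gene's own strand (GRCm38.p6), and capitals mark matches to 5 motifs searched on both strands. These were the PU box of the macrophage factor PU.1 (GAGGAA), the AP-1 site (TGANTCA), the E-box of Myc-type factors (CACGTG), the GC box (GGGCGG) and the TATA box (TATAAA). The motifs were chosen with the calls known, and a match is a description of the letters.
*Lcn10*, chr2:25682476-25682775, plus strand: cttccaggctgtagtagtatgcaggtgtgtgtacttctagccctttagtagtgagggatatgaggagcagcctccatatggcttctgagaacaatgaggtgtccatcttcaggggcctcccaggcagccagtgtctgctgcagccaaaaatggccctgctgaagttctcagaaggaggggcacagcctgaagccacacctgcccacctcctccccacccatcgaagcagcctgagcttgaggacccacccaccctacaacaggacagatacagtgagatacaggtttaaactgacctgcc
*Fcna*, chr2:25627925-25628224, minus strand: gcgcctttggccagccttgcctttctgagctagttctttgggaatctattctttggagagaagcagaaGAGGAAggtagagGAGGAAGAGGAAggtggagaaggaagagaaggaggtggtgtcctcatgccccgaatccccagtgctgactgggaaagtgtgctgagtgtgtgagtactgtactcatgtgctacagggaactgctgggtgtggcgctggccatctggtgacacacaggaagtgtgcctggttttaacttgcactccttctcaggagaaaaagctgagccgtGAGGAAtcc
*Bmyc*, chr2:25706629-25706928, plus strand: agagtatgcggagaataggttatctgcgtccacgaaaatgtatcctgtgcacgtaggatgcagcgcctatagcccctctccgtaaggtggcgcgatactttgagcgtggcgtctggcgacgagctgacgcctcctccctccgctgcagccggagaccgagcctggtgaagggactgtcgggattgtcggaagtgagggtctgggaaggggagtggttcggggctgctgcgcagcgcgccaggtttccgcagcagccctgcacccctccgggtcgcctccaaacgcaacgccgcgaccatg
*Pnpla7*, chr2:24975783-24976082, plus strand: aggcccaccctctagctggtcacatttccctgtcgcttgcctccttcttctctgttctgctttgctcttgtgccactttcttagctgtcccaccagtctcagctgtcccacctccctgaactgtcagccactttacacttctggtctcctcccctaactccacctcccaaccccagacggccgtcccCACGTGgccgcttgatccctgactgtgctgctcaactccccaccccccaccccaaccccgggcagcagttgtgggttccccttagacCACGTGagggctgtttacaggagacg

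The *Fcna* window held 4 PU boxes, 3 of them between 182 and 163 bases before the start, where 28.3% of all 32851 promoter windows hold at least 1 and 0.125% at least 4. The *Bmyc* window held none of the 5 motifs but 29 CpG dinucleotides, and the *Lcn10* window none of the motifs and 1 CpG. *Pnpla7* had 2 E-boxes, where 0.594% of all windows hold at least 2. Of the windows of the neighbours 2.1% did so, and 2.94% of those of neighbours listed at 0. The limits of 4 PU boxes and 2 E-boxes equal the counts in *Fcna* and *Pnpla7*, so these shares are a description and no test. Windows of the other called genes were searched and are not shown. There *Ralgds* had 1 E-box and *Egfl7* and *Olfm1* 1 PU box each, in 1 of their windows, besides GC boxes. Promoters were found for 123 of the 143 genes. The median window held 18 CpG dinucleotides in tested neighbours (88 windows of 71 genes), 2.5 in neighbours listed at 0 (34 windows of 32 genes) and 7 over all windows. GC boxes stood in 58% of the windows of tested neighbours, 26.5% of those of neighbours at 0 and 35.7% of all windows.

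*Ralgds*, an exchange factor that links Ras to the Ral GTPases, had the smallest p among the neighbours and lies near the far edge, 2830 kb from *Lcn10* (28513125 to 28553081, plus strand). It had 613, 647 and 587 normalized counts in Lcn10-KO, against 316, 441 and 360 in WT. The groups were clearly apart, with the lowest Lcn10-KO library above the highest WT library. Means were 616 ± 30.3 in Lcn10-KO and 372 ± 63.3 in WT (SD, n = 3 each), a log2 fold change of 0.74 ± 0.11 (SE, limma adjusted p = 0.00453). Further out, *Tsc1* codes for hamartin, which with tuberin restrains the growth kinase complex mTORC1. *Tsc1* had 1239, 1250 and 1391 normalized counts in Lcn10-KO and 1025, 1222 and 1078 in WT. The groups did not overlap, and the gene did not pass the threshold (log2 fold change 0.22 ± 0.07 (SE), limma adjusted p = 0.0635).

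*Pnpla7*, a lysophospholipase of the patatin-like family, starts 707 kb from *Lcn10* on the side of *Fcna* (24976033 to 25054057, plus strand). It had 1886, 2002 and 1985 normalized counts in Lcn10-KO, against 1425, 1634 and 1664 in WT. All 3 Lcn10-KO libraries lay above all 3 WT libraries. The mean was 1958 ± 62.8 in Lcn10-KO and 1575 ± 130 in WT (SD, n = 3 each), 1.24 times the WT level, with a log2 fold change of 0.32 ± 0.06 (SE, limma adjusted p = 0.00887). Leaving out the second or the third Lcn10-KO library put its adjusted p at 0.0622 or 0.0623.

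*Egfl7*, which codes for a secreted EGF-domain protein of endothelial cells, had the largest fold change of the tested neighbours and the sixth lowest mean among the 76. It lies 897 kb from *Lcn10* (26580014 to 26593120, plus strand). It had 36.2, 60.4 and 49.4 normalized counts in Lcn10-KO, against 27.9, 17.0 and 19.1 in WT. The Lcn10-KO libraries were spread widely, and the lowest still lay above the highest WT library. Means were 48.7 ± 12.2 in Lcn10-KO and 21.3 ± 5.81 in WT (SD, n = 3 each), a log2 fold change of 1.15 ± 0.27 (SE, limma adjusted p = 0.0203). Without Lcn10-KO replicate 2, Lcn10-KO replicate 3 or WT replicate 3 its adjusted p was 0.122, 0.0955 and 0.0528. An overlapping gene of the same strand, *Gm20532*, covers 49.5% of *Egfl7* and was not analysed here, so their reads may be shared.

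Endothelial markers moved with *Egfl7* in part of the libraries. *Pecam1*, *Cdh5*, *Emcn*, *Robo4*, *Tie1*, *Tek* and *Vwf* were each highest in Lcn10-KO replicate 2 and next highest in Lcn10-KO replicate 3, the libraries in which *Egfl7* was highest and next highest. *Pecam1* had 49.5, 161 and 89.3 normalized counts in Lcn10-KO and 41.1, 67.5 and 44.7 in WT, and *Emcn* 24.5, 121 and 62.4 in Lcn10-KO and 30.7, 31.8 and 27.2 in WT. In Lcn10-KO replicate 1, where *Egfl7* stood at 36.2, *Emcn*, *Robo4*, *Tek* and *Kdr* were below all 3 WT libraries. *Kdr*, the VEGF receptor of endothelial cells, had a lower mean in Lcn10-KO, unlike the other 7 markers, with 192, 238 and 183 normalized counts in Lcn10-KO and 279.9, 209 and 205 in WT. Its log2 fold change was −0.17 ± 0.14 (SE, limma adjusted p = 0.470), and its groups overlapped. The 8 endothelial markers, none of them at 0 throughout, summed to 1485 to 2071 in Lcn10-KO and 1392 to 1586 in WT, with *Vwf* the most abundant in each library. Of the 7 that were tested, 1, *Vwf*, was called, and it was higher in Lcn10-KO. Their part in the *Egfl7* result was not tested, and in bulk RNA more cells of a type cannot be told apart from more RNA per cell.

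**Figure D3:**
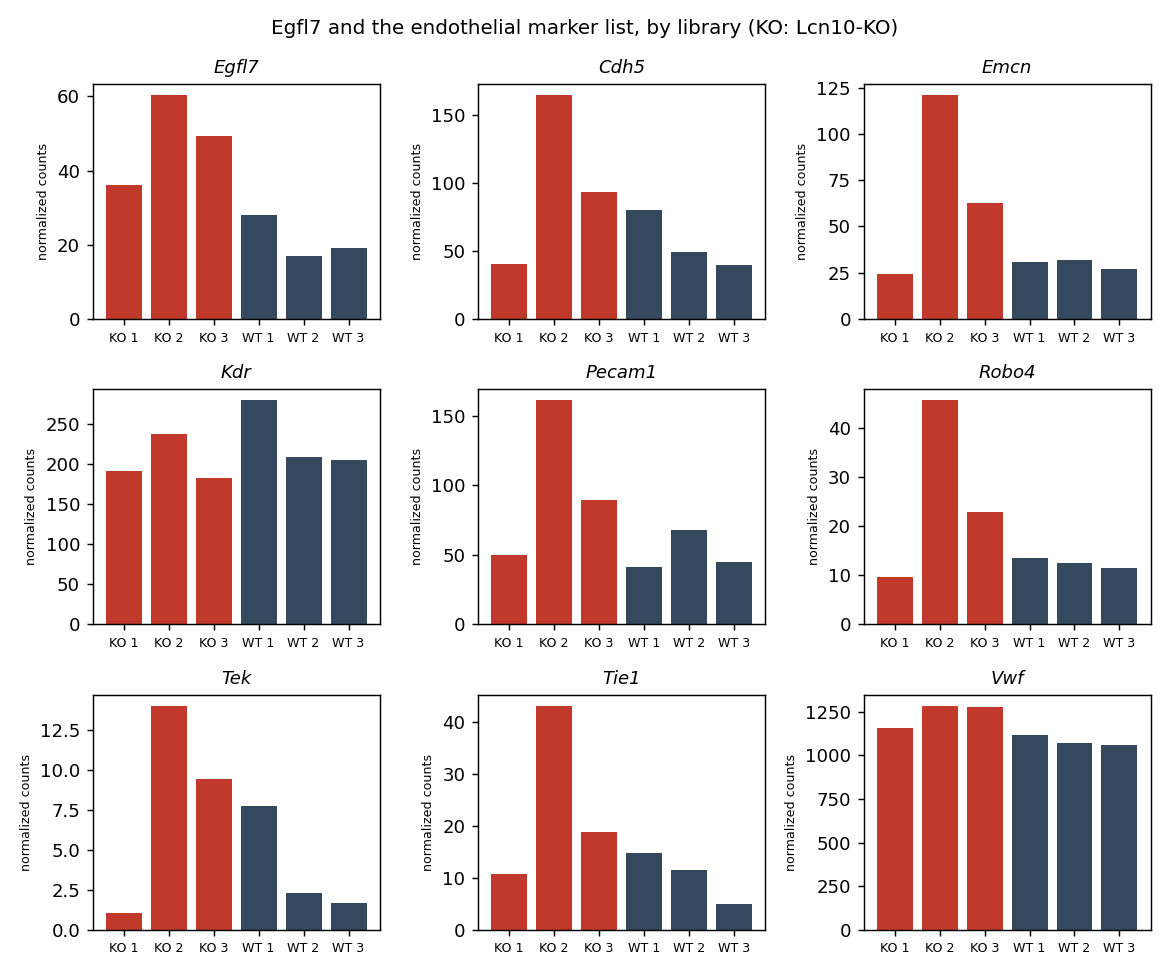
*Egfl7* and the 8 endothelial markers by library. Bars are normalized counts of single libraries, on axes that start at 0, with the 3 Lcn10-KO libraries (KO 1 to KO 3, red) left of the 3 WT libraries (dark blue). *Egfl7* and 7 of the markers peak in Lcn10-KO replicate 2, while *Kdr* peaks in WT replicate 1.

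Within *Egfl7* lie the miRNA hairpins *Mir126a*, on the same strand, and *Mir126b*, on the opposite strand. Both were listed at 0 in all 6 libraries. *Egfl7* is the host gene of miR-126, a miRNA known for its role in vessels. Mature miRNAs were not measured, so the values of *Egfl7* say nothing of this product, which is shown because it is the other known output of the locus (RefSeq, GRCm38.p6, chr2:26591402-26591423, plus strand, seed of bases 2 to 8 in capitals).
mmu-miR-126a-3p: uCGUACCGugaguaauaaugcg

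*Olfm1*, which codes for noelin, a secreted glycoprotein best known from neurons, was the weakest of the 6 calls, 2510 kb from *Lcn10* (28192992 to 28230736, plus strand). It had 1659, 1758 and 1702 normalized counts in Lcn10-KO, against 1793, 2212 and 2093 in WT. The highest Lcn10-KO library lay just below WT replicate 1, and the other WT libraries stood well above. The mean was 1706 ± 49.4 in Lcn10-KO and 2033 ± 216 in WT (SD, n = 3 each), a log2 fold change of −0.25 ± 0.07 (SE, limma adjusted p = 0.0481). The call was lost when any library other than WT replicate 1 was left out, with adjusted p of up to 0.149, and under quantile normalization.

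**Figure D4:**
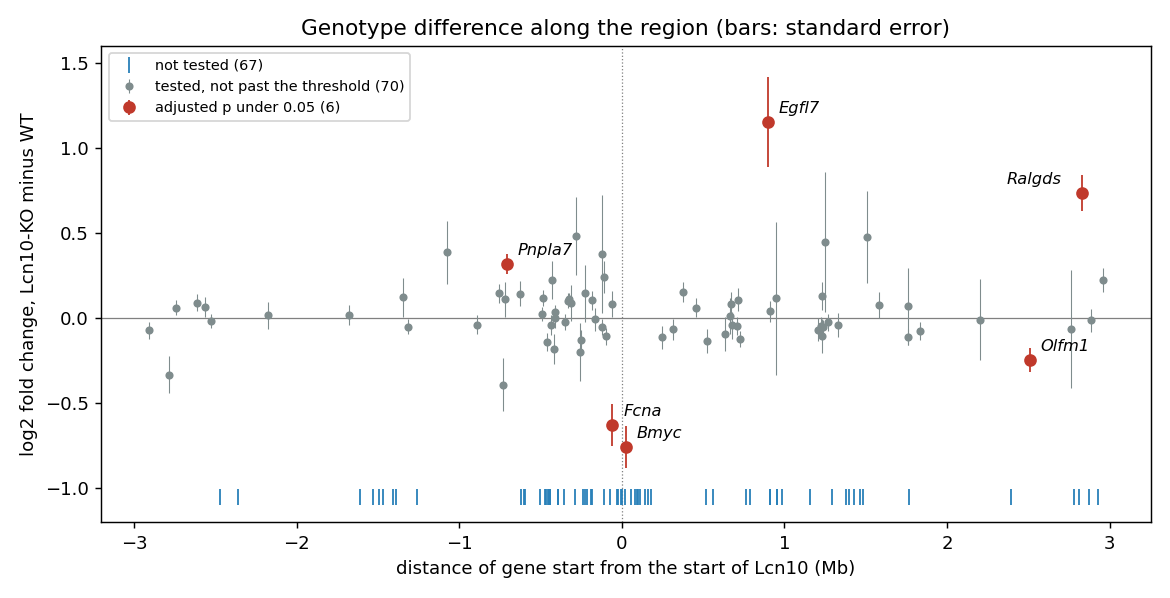
Log2 fold change against distance from *Lcn10*. The x axis is the distance of each gene's start in Mb, the y axis the log2 fold change, Lcn10-KO minus WT, with its standard error. Red points are the 6 called genes, grey points the other 70 tested, and blue ticks the 67 not tested. *Fcna* and *Bmyc* lie closest to 0 on the x axis, and the other 4 calls are spread from −0.71 to 2.83 Mb.

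Calls were spread along the region. Within 0.5 Mb of *Lcn10* 2 of 29 tested genes were called, both lower, at 0.5 to 1 Mb 2 of 17, both higher, at 1 to 2 Mb 0 of 17 (1 at an unadjusted limma p under 0.05) and at 2 to 3 Mb 2 of 13. These shares of 6.9%, 11.8%, 0% and 15.4% lie on both sides of the 9.84% called over all tested genes (4.7% higher and 5.14% lower), and each rests on at most 2 calls. Across the 76 genes the absolute log2 fold change had a Spearman correlation of −0.17 and a Pearson correlation of −0.06 with distance. These genes share their libraries and are not independent replicates. Within 100 kb, a limit chosen after the values were seen, 4 of 14 genes were tested, and these were *Bmyc*, *Fcna*, *Tmem141* and *Rabl6*. *Rabl6*, a Rab-like GTPase 99.7 kb away, had 1357, 1478 and 1457 normalized counts in Lcn10-KO and 1581, 1495 and 1543 in WT, without overlap and not past the threshold (log2 fold change −0.11 ± 0.05 (SE), limma adjusted p = 0.198). Beyond *Bmyc* the next tested genes were *Camsap1*, which binds the minus ends of microtubules, and *Ubac1*, a subunit of a ubiquitin ligase. Their groups overlapped, with log2 fold changes of −0.11 ± 0.07 and −0.07 ± 0.06 (SE, limma adjusted p of 0.327 and 0.544).

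The region 3 to 6 Mb from *Lcn10* had 5 calls among 55 tested genes (9.09%), and the rest of chromosome 2 had 72 among 806 (8.93%). No test of the difference between these regions was made. At the edges of the window, *Apbb1ip* (−2.91 Mb) and *Tsc1* (2.96 Mb) were the tested genes just inside and *Thnsl1* (−4.48 Mb) and *Ak8* (3.02 Mb) those just outside, with log2 fold changes of −0.07, 0.22, 0.04 and 0.43. None of the 4 was called (limma adjusted p of 0.0635 to 0.887). The 6 genes left out by the rule had log2 fold changes between −0.05 and 0.11, and 0 of them were called by limma, with 0 at an unadjusted p under 0.05.

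Grouped by role, most neighbours did not pass the threshold. Each list held at most 2 calls, to be read against the 9.84% called over all tested genes. Of 16 genes listed under innate immunity and blood cells, 9 were tested, 1 was higher and 1 lower (*Fcna*), with a median log2 fold change of −0.01. The higher one was *Egfl7*, described above as a gene of endothelial cells. *Apbb1ip* and *Fut7*, a fucosyltransferase that builds selectin ligands, had log2 fold changes of −0.07 and −0.20, and neither was called. In the interleukin-1 family cluster, 4 of 7 genes were at 0 and the 2 tested were not called. *Il1rn*, the interleukin-1 receptor antagonist, had 449.6, 471 and 468 normalized counts in Lcn10-KO and 514, 355 and 422 in WT. Its WT libraries lay on both sides of the Lcn10-KO values (log2 fold change 0.12 ± 0.11 (SE), limma adjusted p = 0.554). *Psd4*, an exchange factor of Arf6, differed by −0.05 ± 0.04 on the log2 scale (SE, limma adjusted p = 0.532).

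Of 17 transcription and chromatin genes 13 were tested and 1, *Bmyc*, was called. *Nacc2*, a BTB-domain repressor, had 809, 787 and 780 normalized counts in Lcn10-KO and 674, 757 and 705 in WT, without overlap (log2 fold change 0.15 ± 0.06 (SE), limma adjusted p = 0.115). *Nelfb*, a subunit of the negative elongation factor, and *Brd3*, a bromodomain protein of acetylated chromatin, also had separate groups, with log2 fold changes of 0.12 and −0.11 (adjusted p of 0.135 and 0.148). All 13 genes of small GTPase, kinase and phosphatase signalling were tested and 1, *Ralgds*, was called. After *Tsc1*, the next smallest p belonged to *Arrdc1*, an arrestin-domain protein of vesicle budding, and *Phpt1*, a protein histidine phosphatase. Their log2 fold changes were 0.15 ± 0.05 and 0.24 ± 0.09 (SE, limma adjusted p of 0.111 and 0.121), both without overlap. *Phpt1* shares 78.9% of its span with *Mamdc4* on the same strand, so its value is uncertain.

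Lipid, nucleotide sugar and glycan genes had 8 of 14 tested and 1 called, *Pnpla7*. *Uap1l1* had 4900, 4818 and 4883 normalized counts in Lcn10-KO and 4470, 4501 and 4561 in WT. The 2 groups were narrow and apart, by a factor of 1.08 (log2 fold change 0.11 ± 0.04 (SE), limma adjusted p = 0.0877). *Abca2*, a lipid transporter of endosomes and lysosomes, lay lower in all 3 Lcn10-KO libraries than in any WT library, without passing (−0.13 ± 0.06 (SE) on the log2 scale, limma adjusted p = 0.172). The 8 mitochondrial and peroxisomal genes were all tested and 0 were called by limma, with 1 at an unadjusted p under 0.05. That one was *Pdss1*, a subunit of the enzyme that makes the side chain of coenzyme Q. *Pdss1* had 199, 185 and 203 normalized counts in Lcn10-KO and 279, 213 and 251 in WT, without overlap (log2 fold change −0.33 ± 0.11 (SE), adjusted p = 0.0700). *Acbd5*, a peroxisomal acyl-CoA-binding protein, and *Sardh*, the mitochondrial sarcosine dehydrogenase, had log2 fold changes of 0.09 and 0.48 (adjusted p of 0.258 and 0.294). The antisense gene *Sardhos*, not analysed here, covers 75.6% of *Sardh*. With a mean of only 21.1 normalized counts as well, the value of *Sardh* is uncertain.

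The Surfeit cluster, a tight group of unrelated genes of broad expression, had 8 of 9 genes tested and 0 called by limma, with 0 at an unadjusted p under 0.05. *Surf1*, an assembly factor of cytochrome c oxidase, and *Surf2*, which shares its promoter region on the opposite strand, had log2 fold changes of 0.13 ± 0.08 and −0.11 ± 0.10 (SE, limma adjusted p of 0.346 and 0.554). *Surf4* and the kinase-like gene *Stkld1*, another pair that starts from opposite strands, had −0.05 ± 0.04 and 0.45 ± 0.41 (adjusted p of 0.459 and 0.544).

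Secretory pathway genes had 8 of 8 tested and 1, *Olfm1*, called. *Sec16a*, which organises the exit sites of the endoplasmic reticulum, and *Qsox2*, a sulfhydryl oxidase, had Lcn10-KO values below those of WT without overlap, with log2 fold changes of −0.12 and −0.13 (limma adjusted p of 0.123 and 0.255). *Npdc1*, a membrane protein known from neural cells, had 0.48 ± 0.23 (SE, adjusted p = 0.205). Of the genes of protein degradation and proteolysis, 7 of 9 were tested and 0 called by limma (2 at an unadjusted p under 0.05). *Dpp7*, a dipeptidyl peptidase of intracellular vesicles, had a log2 fold change of 0.10 ± 0.04, and *Pmpca*, a subunit of the mitochondrial processing peptidase, −0.05 ± 0.05 (SE, limma adjusted p of 0.164 and 0.616). The 6 cytoskeleton and cilia genes, all tested, had 0 calls by limma and 1 gene, *Tubb4b*, at an unadjusted p under 0.05. *Tubb4b* had a log2 fold change of −0.14 ± 0.05, *Tprn*, the hair cell protein taperin, −0.18 ± 0.09 and *Inpp5e*, a phosphoinositide phosphatase of cilia, 0.11 ± 0.07 (SE, adjusted p of 0.120, 0.205 and 0.325). Of 7 neuronal genes, 3 were at 0 and 3 were tested, with *Olfm1* called. *Cacna1b*, a pore subunit of neuronal calcium channels, had 81.2, 79.6 and 71.4 normalized counts in Lcn10-KO and 47.8, 56.8 and 75.1 in WT, with overlap (log2 fold change 0.39 ± 0.18 (SE), limma adjusted p = 0.206). *Nsmf*, a messenger from synapse to nucleus, had 0.14 ± 0.08 (adjusted p = 0.249).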

How the data were processed

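RNA-seq was measured in 3 Lcn10-KO and 3 WT libraries. The submitters' processing notes name DESeq2, Salmon 0.11.2, STAR 2.6.1a, bcl2fastq and the build mm10, with no role or order. No source used here gives the annotation, filters or strand setting. As deposited, each value is a signal, a count scaled by the authors. The values are not whole numbers, and 90.3% to 92.3% of the low values in a library were whole multiples of 1 read within 0.1 reads, too few to recover reads, so no count test was run.

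Columns were matched to samples by library name. Genes that reached 10 in 3 or more libraries were fitted on log2(value + 1) with limma 3.58.1 in R 4.3.3 (genotype as the only term, mean-variance trend, robust) and adjusted over all 12091 genes. Positions came from GENCODE M21 on GRCm38, the assembly that mm10 names (24464 of 24972 rows matched), and promoters and miRNAs from RefSeq (GRCm38.p6). The procedure was checked on simulated data in which all genes shared the same biological spread. That check cannot show how far the calls depend on the mean-variance trend. Neighbours named singly are *Lcn10*, the called ones, the 3 tested ones nearest on each side, the 5 smallest p not called, the 5 highest levels, up to 4 per role list by p and the edge genes. *C8g*, *Fcnb*, *Zmynd19*, *Mir126a* and *Mir126b* were named after their values were seen. Members and lists were chosen with earlier results of these data known. Deviations of same-numbered libraries correlated weakly (0.014 to 0.073), and those of differently numbered Lcn10-KO and WT libraries at −0.063 to 0.026. Correlations this small cannot tell whether the numbers pair the libraries. Figures used matplotlib 3.10.9 in Python 3.11.15. Alternatives were other normalizations, filters and pseudocounts, no trend, a replicate block, libraries left out in turn and other membership rules.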

Additional observations from a re-analysis of the deposited data

How the results depend on the processing

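Of the 6 called neighbours, *Bmyc* and *Ralgds* lost their call under 1 of 14 alternatives, *Fcna* under 2 of 14, *Pnpla7* under 3 of 14, *Egfl7* under 4 of 13 and *Olfm1* under 7 of 14, with the direction kept in each. Limma without the trend called 0 neighbours (0 higher and 0 lower) and 0 genes at 3 to 6 Mb, with 19 and 8 at an unadjusted p under 0.05, and 14 genes in all. The cause was not tested. With 1 library left out, the neighbours called ranged from 2 (without Lcn10-KO replicate 3) to 9 (without WT replicate 2). These were 2.63% and 11.8% of those tested, against 1.43% and 13.7% of all tested genes. From 1 to 5 were higher and from 1 to 4 lower. Of the 55 genes tested at 3 to 6 Mb, 0 were called without Lcn10-KO replicate 2 or 3 (8 and 7 at an unadjusted p under 0.05). In those settings 1.7% and 1.43% of all tested genes were called. The most called at 3 to 6 Mb were 6, without WT replicate 2, where 13.7% of all tested genes were called. With a replicate block, 9 neighbours were called, 4 higher and 5 lower (11.8%, against 13.3% of all tested genes). Whether the replicate numbers pair the libraries is not known. The 3 added were *Pdss1*, *Tsc1* and *Zmynd19*. A window of 1 Mb on each side held 4 calls among 46 tested genes (8.7%), against 9.84% of all tested genes. Among uncalled genes, the log2 fold change ranged over leave-outs from −0.0078 to 0.26 for *Il1rn*, which passed without WT replicate 1, and from −0.081 to 0.0052 for *Pmpca*. *Nacc2*, *Pdss1*, *Tsc1* and *Tubb4b* passed without WT replicate 2. Of the 40 genes followed through these alternatives, the others kept their direction. The genes just outside the window, those left out by the rule, *Zmynd19* and the markers were not followed. A count test was not run, since whole reads could not be recovered. Low levels limit precision: *Egfl7* had 17.0 to 60.4 normalized counts per library.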
